A study of Mus musculus with 30 samples.

Results

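Libraries of sorted mouse microglia with early mouse numbers were compared with libraries with late ones among males that carry Cre. The members were the 11 of 30 libraries labelled Bin1-Het-M or Bin1-Homo-M, split by the final number of the label, which was taken as a mouse number. The 5 early libraries were Homo-M-0093, Homo-M-0097, Homo-M-0109, Het-M-0100 and Het-M-0108. The 6 late ones were Het-M-0197, Het-M-0199, Het-M-0203, Het-M-0210, Homo-M-0189 and Homo-M-0190. Homo mice carried *Bin1* flox/flox and Het mice *Bin1* wt/flox, and both carried *Cx3Cr1*-Cre, a knock-in at a gene that microglia and other mononuclear phagocytes express. The methods describe CD11b+ CD45med cells sorted from brains of 3-month-old mice, whereas the growth protocol among the sample labels speaks of microglia in culture, and which of the 2 holds was not tested. The labels give neither a date nor a litter, so what sets the ranges apart beside the number cannot be told from them, and where nothing says that libraries came from separate preparations, p-values measure the spread between these libraries. All 5 male WT libraries (*Bin1* wt/flox without Cre) have late numbers, and of the libraries outside the comparison WT-F-0122 alone has an early one.

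Microglia are the resident macrophages of the brain and are known for high levels of complement, lysosomal and purine receptor genes. Long noncoding RNAs (lncRNAs) such as *Malat1* and *Neat1* stay in the nucleus, where they lie beside the speckles that store splicing factors. Messenger RNAs of metabolism, the lysosome and the secretory pathway are translated in the cytoplasm or on the endoplasmic reticulum. Bulk RNA gives 1 value per gene and library, so fewer cells of a type and less RNA per cell cannot be told apart.

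FPKM (fragments scaled to transcript length and to the mapped total) were divided by a scaling factor per library, and all levels below are scaled FPKM. The labelled genotype was checked on *Bin1*. Values of early libraries are given throughout in the order Homo-M-0093, Homo-M-0097, Homo-M-0109, Het-M-0100 and Het-M-0108. *Bin1* was at 50.3, 52.7 and 48.5 in the Homo and at 104.7 and 120.3 in the Het libraries. In the late libraries it spanned 39.9 to 165.7 with a median of 79.7. The library labelled Het-M-0199 stood at 52.4, inside the range of the Homo libraries and against its label, while the male WT libraries lay between 228.4 and 286. *Cx3cr1*, which encodes the fractalkine receptor and carries the Cre allele, was at 737, 937, 661, 532 and 769 in the early libraries and between 682 and 1278 in the late ones, with a median of 1132. These levels overlapped. All 32 homeostatic microglia genes of the marker list were above 0. Het-M-0203 has a late number but lay with the early libraries on the first principal component of all 30 libraries, at 53.5 against 30.8 to 76.5 in the early libraries and at most 5.33 in the other late ones.

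Relative depth was read from the steps that single fragments give to low values, and 1 is the median library. It was 0.669, 0.894, 0.920, 0.723 and 0.903 in the early libraries, and 0.727 to 1.4097 in the late ones. The mean was 0.822 in early and 1.02 in late libraries. The genotype-adjusted difference was -0.34 on the log2 scale and missed the threshold in a two-sided exact permutation test within genotype (p = 0.06, 150 assignments). Het-M-0203 had the lowest depth of the late libraries.

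Across all genes, early libraries had more genes higher than lower. Of 17326 genes that averaged 0.1 FPKM or more, 1390 (8.02%) were called, meaning that limma, with genotype in the fit, gave a Benjamini-Hochberg adjusted p under 0.05 and more than 1.5-fold change. Of these, 1109 (6.4%) were higher and 281 (1.62%) lower in early libraries, and 5746 (33.2%) had an unadjusted p below 0.05. The ranges of early and late libraries did not overlap for 968 genes (5.59%), 398 of them called. The median log2 difference over all genes was 0.11. The share of calls that were higher was 79.8%, against 96.6% without scaling and 66.5% after quantile normalization, and these settings moved the median of all genes to 0.23 and -0.04.

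The calls rested on single libraries. Without Het-M-0100 or Homo-M-0189 the limma fit called 1 gene, *Snord104*, and without Het-M-0108 it called *Snord104*, *Gm25002* and *Gtpbp6*, names given after the values were seen. It called 321 without Homo-M-0093 and between 702 and 832 without Het-M-0197, Het-M-0199, Het-M-0210, Homo-M-0109 or Homo-M-0190. It called 1727 without Homo-M-0097 and 2418 without Het-M-0203. With relative depth as a covariate 1 gene, again *Snord104*, was called, and 2648 had an unadjusted p below 0.05. The fits that left out 1 library had 4167 to 7064 genes at an unadjusted p below 0.05. All 1390 called genes kept their sign in each of the 11 fits that left out 1 library. In each of the 19 other settings every called gene that was tested kept its sign, with 1249 tested at a mean FPKM of at least 1. These fits share libraries with the one that called the genes, so the kept signs are no separate support.

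**Figure D1:**
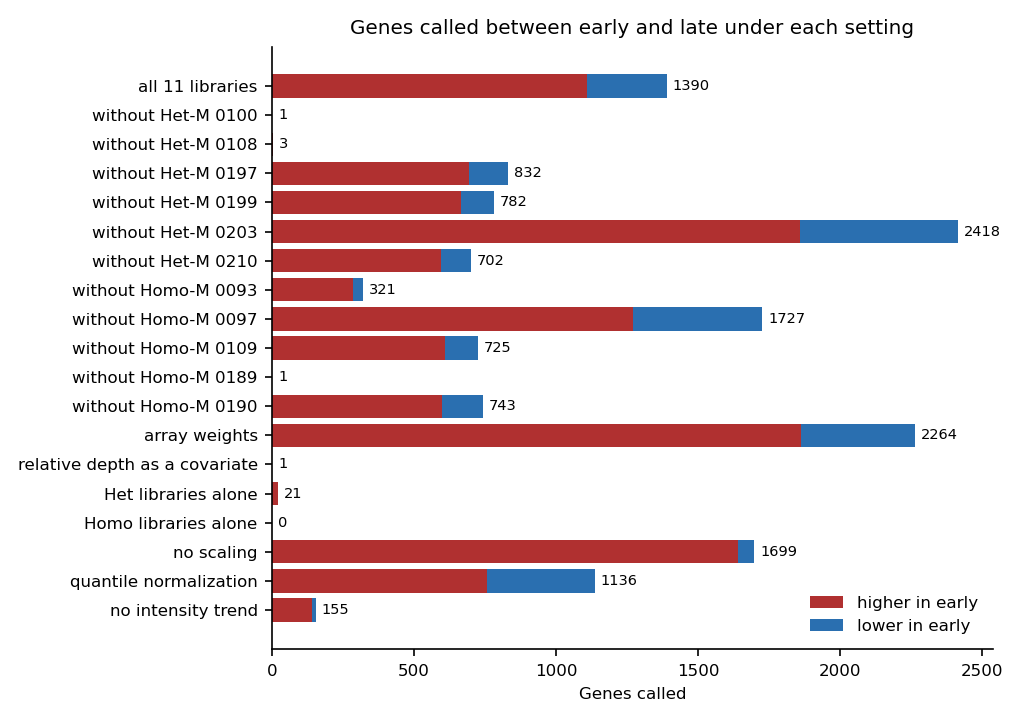
Number of genes called between early and late libraries (x axis) in the fit of all 11 libraries, in the 11 fits that leave out 1 library, and in 7 other settings (y axis). Red bars count genes higher and blue bars genes lower in early libraries. The count runs from 0 in Homo libraries alone to 2418 without Het-M-0203.

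The RNA classes differed in how far they moved. Over all genes tested, 6.4% were called higher and 1.62% lower. Of 1862 lncRNA genes tested, 301 were called higher and 2 lower in early libraries, with a median log2 difference of 0.60. Of 12705 protein-coding genes, 640 were called higher and 264 lower, with a median of 0.00. Genes annotated as TEC, which are transcribed regions that await experimental evidence, had 88 of 916 higher and 1 lower, with a median of 0.53. Pseudogenes had 59 of 1116 higher and 8 lower (median 0.30), and small RNA genes 14 of 620 higher and 5 lower (median 0.50). Their shares called higher, 5.29% and 2.26%, and that of protein-coding genes, 5.04%, were below the share of all genes. Those of lncRNA genes, 16.2%, and TEC genes, 9.61%, were above it. None of the 22 mitochondrial rRNA and tRNA genes was called by limma, and 2 of them had an unadjusted p below 0.05.

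Among lncRNA types, 18 of 54 bidirectional promoter lncRNAs, 69 of 305 processed transcripts, 98 of 603 lincRNAs and 102 of 773 antisense genes were called higher. The processed transcripts and bidirectional promoter lncRNAs had no gene called lower, and the lincRNAs and antisense genes had 1 each. The kit does not mark strand, so reads from where an antisense gene overlaps its partner cannot be told apart. Called higher were 36 (3.37%) of 1068 lncRNA genes below 1 FPKM and 210 (31.4%) of 668 between 1 and 10. So were 52 (42.6%) of those between 10 and 100, and 3 of the 4 above 100. Protein-coding genes of the same levels had 60 (2.52%) of 2384, 204 (5.16%) of 3953, 317 (5.63%) of 5632 and 59 (8.02%) of 736 called higher. Below 1 FPKM the lncRNA share was thus close to the protein-coding one and below the 6.4% of all genes. The lncRNA medians at the 4 levels were 0.48, 0.73, 0.57 and 0.87, and the protein-coding ones 0.28, 0.02, -0.07 and -0.21. With relative depth in the fit, the median of the lncRNA genes was 0.41 and that of protein-coding genes 0.00. The fits that leave out 1 library gave an lncRNA median of 0.54 to 0.67, and quantile normalization gave 0.32.

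A library's lncRNA index compared 794 lncRNA with 10321 protein-coding genes that averaged 1 FPKM or more, as the difference between their median centred log2 levels. It was 0.86, 0.39, 0.79, 0.92 and 0.67 in the early libraries. In the late libraries it was -0.32, 0.07, 0.59, -0.29, -0.01 and 0.11 in the order Het-M-0197, Het-M-0199, Het-M-0203, Het-M-0210, Homo-M-0189 and Homo-M-0190. Het-M-0203 was thus above the lowest early library, and the ranges overlapped through this library. All 5 male WT libraries lay between -0.30 and 0.11, and all 10 female Cre-positive libraries between -0.36 and 0.10.

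**Figure D2:**
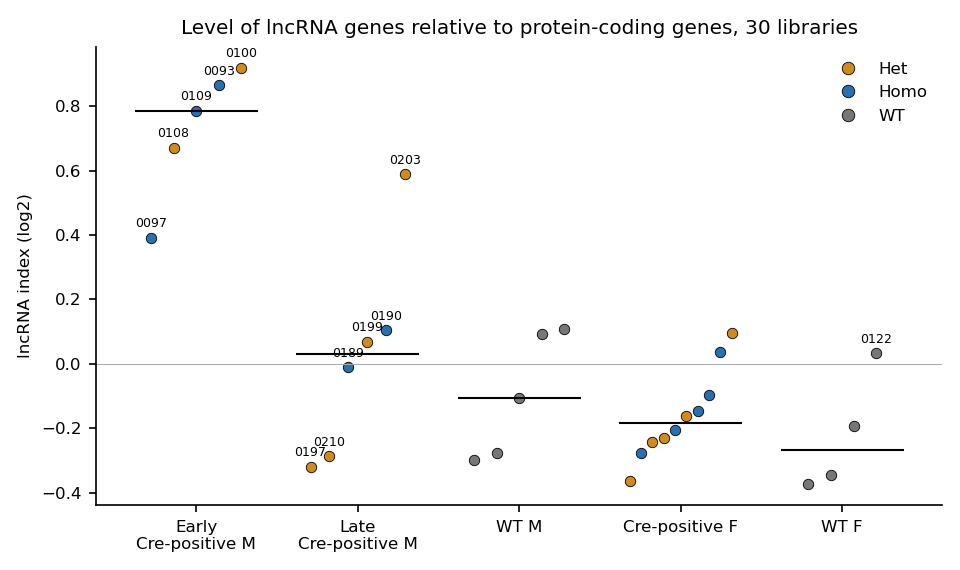
The lncRNA index (y axis, log2) of each of the 30 libraries by group (x axis), coloured by genotype, with a bar at the median of each group and mouse numbers beside the compared libraries and WT-F-0122. The 5 early libraries lie between 0.39 and 0.92, and Het-M-0203 at 0.59 is the only library outside them above 0.11.

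Members of this and the following gene lists were chosen with earlier results of these data known, so their counts and medians are no separate support. Nuclear lncRNAs were higher in early libraries. Of 10 tested members of a list of nuclear-retained and imprinted lncRNAs, 4 were called higher, against 6.4% of all genes, and none lower. All 10 had a positive difference, with a median of 0.80. *Malat1* (GRCm38, chromosome 19, 5795690 to 5802672, minus strand), the abundant RNA of nuclear speckles, was at 10492, 7715, 10045, 11172 and 9488 in the early libraries. In the late libraries it ran from 2778 through a median of 5120.1 to 7368, the highest being Het-M-0203. Every early library was above every late one, and the fold was 2.06 (log2 difference 1.05 ± 0.30 SE, limma adjusted p = 0.0373).

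*Neat1* (chromosome 19, 5824708 to 5845478, minus strand), the scaffold of paraspeckles, was at 45.9, 32.3, 35.3, 40.7 and 47.2 in the early libraries and at 13.9 to 30.9 in the late ones with a median of 17.7. The groups did not overlap, and the log2 difference was 1.14 ± 0.18 (adjusted p = 0.0132). *Firre*, an X-linked lncRNA that binds hnRNP U, was at 103.8, 60.2, 71.2, 108.3 and 90.6 in early and at 30.6 to 61.1 in late libraries (median 34.3). Only Het-M-0203, at 61.1, reached into the early range, and the difference was 1.183 ± 0.20 (adjusted p = 0.0134). *Ftx*, a noncoding gene of the X-inactivation centre, rose by 0.95 ± 0.24 (adjusted p = 0.0249), and Het-M-0203 at 5.35 again lay among the early values of 4.54 to 6.76.

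Host genes of small nucleolar RNAs (snoRNAs), which guide the modification of ribosomal RNA from their introns, had 4 of 14 called higher and none lower. Of all genes tested, 6.4% were called higher. The median of the host genes was 0.55, with all 14 differences above 0. *Snhg20* was at 128, 93.1, 143, 178.01 and 138 in early libraries and between 49.3 and 111 in late ones (0.95 ± 0.21, adjusted p = 0.0171). *Snhg3*, *Snhg15* and *Snhg9* rose by 0.70, 0.79 and 0.77. *Gas5*, the member with the highest level, differed by 0.57 (adjusted p = 0.0194) and missed the fold threshold with a fold of 1.49. Reads of *Snhg3* and *Snhg9* may be shared with the overlapping genes *Rcc1* and *Rps2*.

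The ranges did not overlap for 5.59% of all genes tested, called or not. That share is wider than the counts below, which take called genes only. The number both called and without overlap over all genes stands with the calls above. Of 794 lncRNAs that averaged 1 FPKM or more, 106 were called higher and 1 lower without overlap between the ranges. The largest differences were those of *Gm5464* (1.805 ± 0.31), *Gm43634* (1.70 ± 0.32), *Gm16348* (1.65 ± 0.35), *5430400D12Rik* (1.59 ± 0.29) and *5730405O15Rik* (1.48 ± 0.29). *Gm5464* was at 5.54, 3.57, 3.82, 2.69 and 3.83 in early libraries and at 0.465 to 1.93 in late ones. *Gm43634* lies on the same strand as the protein-coding *Cracr2a* and overlaps it, so its reads may be shared. The roles of these 5 genes are not known with certainty.

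**Figure D3:**
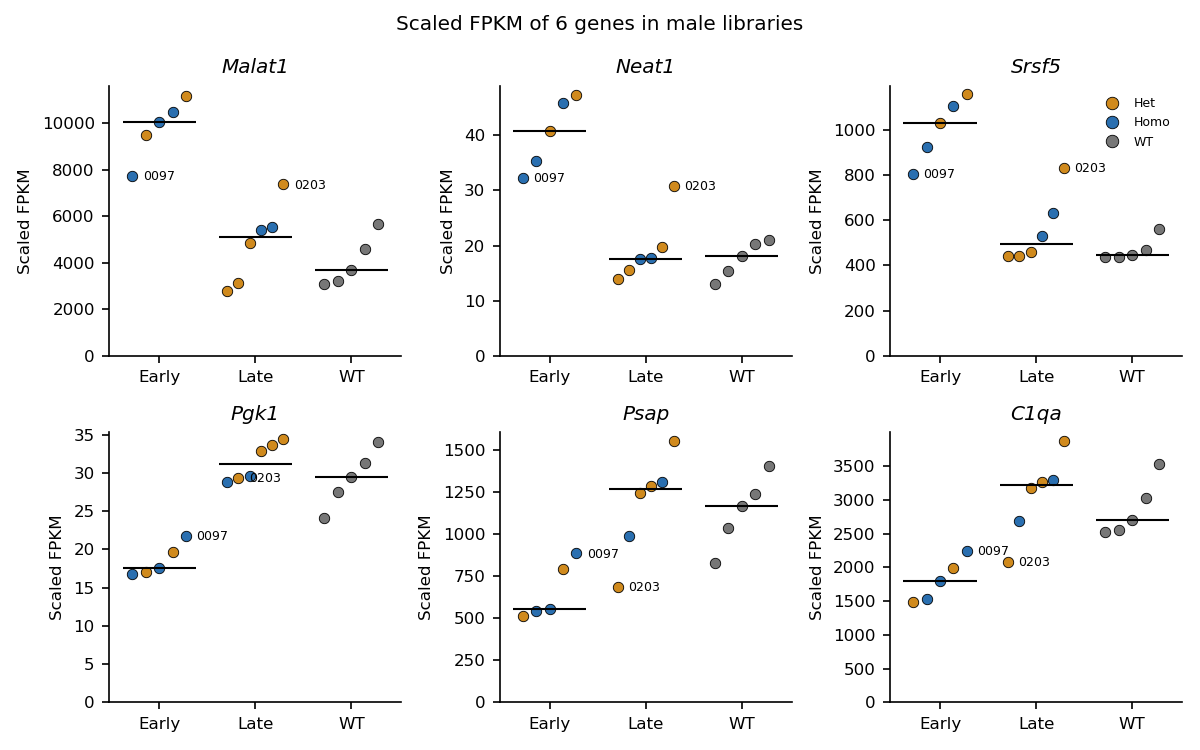
Scaled FPKM (y axis, from 0) of 6 genes in the early and late Cre-positive male libraries and in male WT libraries (x axis), coloured by genotype, with a bar at the median. *Malat1*, *Neat1* and *Pgk1* do not overlap between early and late libraries, whereas *Srsf5*, *Psap* and *C1qa* overlap through Het-M-0203.

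Most genes of a splicing list, also chosen with earlier results known, had higher levels in early libraries. The list holds SR proteins, their kinases and genes whose transcripts often keep an intron. Called higher were 19 of 36 members (52.8%), against 6.4% of all genes, and none lower, with a median log2 difference of 0.61. Of the others, 3 had a negative difference, 2 of these with an unadjusted p below 0.05. *Srsf5*, an SR protein, was at 1103, 806, 922, 1156 and 1029 in the early libraries and between 442 and 831 in the late ones, with a median of 495. Its difference was 0.89 ± 0.19 (adjusted p = 0.016), and Het-M-0203 at 831 was the late library above the lowest early one. *Clk1*, a kinase of SR proteins, was at 376, 297, 375, 468 and 367 in early libraries and at 147 to 322 in late ones (0.92 ± 0.19, adjusted p = 0.0158). *Luc7l*, a component of the U1 particle, *Pnisr*, an SR-related protein, and *Ogt*, the transferase of O-linked N-acetylglucosamine, rose by 0.93, 0.96 and 0.93. *Ddx5*, an RNA helicase, rose by 0.61 ± 0.15 (adjusted p = 0.0219).

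Gene levels do not say which isoform was counted, and whether introns were retained was not tested. The hnRNPs, which also bind nascent transcripts, did not move as 1 group. Of 20, 4 were called higher and 2 lower, against 6.4% and 1.62% of all genes. The hnRNP median of -0.12 turned to 0.02 without scaling. *Hnrnpu*, *Hnrnph1* and *Hnrnpa2b1* rose by 0.63, 0.64 and 0.62, whereas *Hnrnpa0* fell by 0.94, from 4.13 (median of the late libraries) to between 1.73 and 2.57 in the early ones, with Het-M-0203 at 1.89 inside the early range. *Hnrnpk* had a difference of -0.33 (adjusted p = 0.0467), below the fold threshold.

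Glycolysis genes had the lowest median of the functional lists. Of 17, 8 (47.1%) were called lower in early libraries, against 1.62% of all genes, and none higher. The median was -0.58, although 2 members had an unadjusted p below 0.05 in the other direction. *Pgk1*, phosphoglycerate kinase (chromosome X, 106187100 to 106203699, plus strand), was at 16.8, 21.7, 17.6, 17.0 and 19.7 in the early libraries and at 28.8 to 34.4 in the late ones, with a median of 31.2. No early library reached a late one, Het-M-0203 included, and the difference was -0.74 ± 0.10 (adjusted p = 0.013). *Gapdh* was at 92.5, 129, 99.1, 87.4 and 124 in early libraries and at 116 to 200.0 in late ones, and fell by 0.72. *Pfkl*, *Pkm* and *Aldoa*, which encode the liver-type phosphofructokinase, pyruvate kinase and aldolase A, fell by 0.64, 0.62 and 0.59. *Eno1*, enolase, had a difference of -0.58 (adjusted p = 0.0194) and just missed the fold threshold, with a late over early fold of 1.498.

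Lysosome genes followed. Of 38, 5 were called lower and 1 higher, and 28 had a negative difference with an unadjusted p below 0.05, with a median of -0.48. Over all 17326 genes 1.62% were called lower and 6.4% higher, and 2425 were lower at an unadjusted p below 0.05. *Psap*, the precursor of the saposins that activate sphingolipid hydrolases, was at 554, 885, 543, 515 and 792 in early libraries and at 685 to 1551 in late ones, with a median of 1266. Het-M-0203 at 685 was the lowest late library and below 2 early ones, and the difference was -0.83 ± 0.23 (adjusted p = 0.0312). The hydrolases *Glb1* and *Man2b1* fell by 0.68 and 0.65. *Mcoln1*, the cation channel of the lysosome membrane, went the other way, at 179, 122.3, 131, 159 and 151 in early and at 75.4 to 108.99 in late libraries without overlap (0.85 ± 0.13, adjusted p = 0.013). *Ctsd*, cathepsin D, an abundant member, had a difference of -0.55 (adjusted p = 0.156).

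Chaperones of the endoplasmic reticulum had 5 of 26 (19.2%) called lower, against 1.62% of all genes, and none higher, with a median of -0.44. *Pdia3* and *Pdia4*, which form disulfide bonds, fell by 0.65 and 0.75, *Canx*, a lectin chaperone, by 0.75 and *Hsp90b1* by 0.69. *Calr* differed by -0.45 (adjusted p = 0.0423), below the fold threshold. In the cytosol the CCT chaperonin had no call among 8 subunits by limma, although all 8 differences were below 0 and 6 had an unadjusted p below 0.05 (median -0.32). HSP90 and its co-chaperones had 1 of 19 called lower, *St13* (-0.68 ± 0.13, adjusted p = 0.0151), with a median of -0.36. HSP70 and HSP40 genes had a median of -0.20, with 16 of 21 differences below 0 and 8 lower and 1 higher at an unadjusted p below 0.05. The single call was *Dnajc7*, which was at 311 or more in each early library against a late median of 196 and rose by 0.89, with Het-M-0203 at 362 inside the early range. *Hspa8*, the constitutive HSP70, differed by -0.33 (adjusted p = 0.0695). *Dnajc7* overlaps *Cnp* on the other strand, so reads of the shared span may be counted for either. *Cnp* was at 22.3 to 31.6 in early and at 24.6 to 42.6 in late libraries. Whether the 2 share reads was not tested.

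Cytoskeletal genes had 3 of 24 (12.5%) called lower, against 1.62% of all genes, and none higher, with a median of -0.43. *Actb*, beta-actin, was at 528, 797, 571, 459.9 and 643 in early libraries and at 620 to 1298 in late ones, with a median of 1156 (-0.86 ± 0.21, adjusted p = 0.022). *Actg1* and *Cfl1* fell by 0.60 and 0.61. *Tmsb4x*, which binds monomeric actin and was the most abundant member, had a positive difference of 0.46 (adjusted p = 0.257). Of these, *Actb* and *Gapdh* are often used as reference genes.

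Genes that mark microglia had lower levels in early libraries. Of 32 homeostatic genes, 31 had a negative difference, 23 of them with an unadjusted p below 0.05. Called lower were 5 (15.6%), against 1.62% of all genes, and none higher, and the median was -0.47. *C1qa*, a chain of complement C1q, was at 1526, 2243, 1797, 1484 and 1990 in early libraries and at 2083 to 3876 in late ones, with a median of 3217 (-0.76 ± 0.21, adjusted p = 0.0314). *Sparc*, *Olfml3* and *Slc2a5*, the fructose transporter, fell by 0.72, 0.62 and 0.61, and *Cx3cr1* by 0.59 (adjusted p = 0.0474). The summed level of the list was 54079 to 74747 in early and 69736 to 94526 in late libraries, with Het-M-0203 lowest among the late ones and the others at 83524 or more. In quantile-normalized values none of the 32 was called by limma, and without scaling 1 was.

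Genes known from disease-associated microglia moved in the same direction as the homeostatic ones. Of 22, 5 (22.7%) were called lower, against 1.62% of all genes, and none higher, with a median of -0.37. *Itgax*, an integrin chain, was at 2.68, 1.57, 1.70, 1.56 and 2.30 in early libraries and at 3.02 to 4.24 in late ones without overlap (-0.88 ± 0.20, adjusted p = 0.0174). *Spp1*, osteopontin, *Cst7*, cystatin F, and *Ctsb*, cathepsin B, fell by 0.78, 0.60 and 0.59. Of 18 antigen presentation genes, *B2m* and *Tapbp* fell by 0.66 and 0.64, none was called higher, and 6 had a positive difference.

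**Figure D4:**
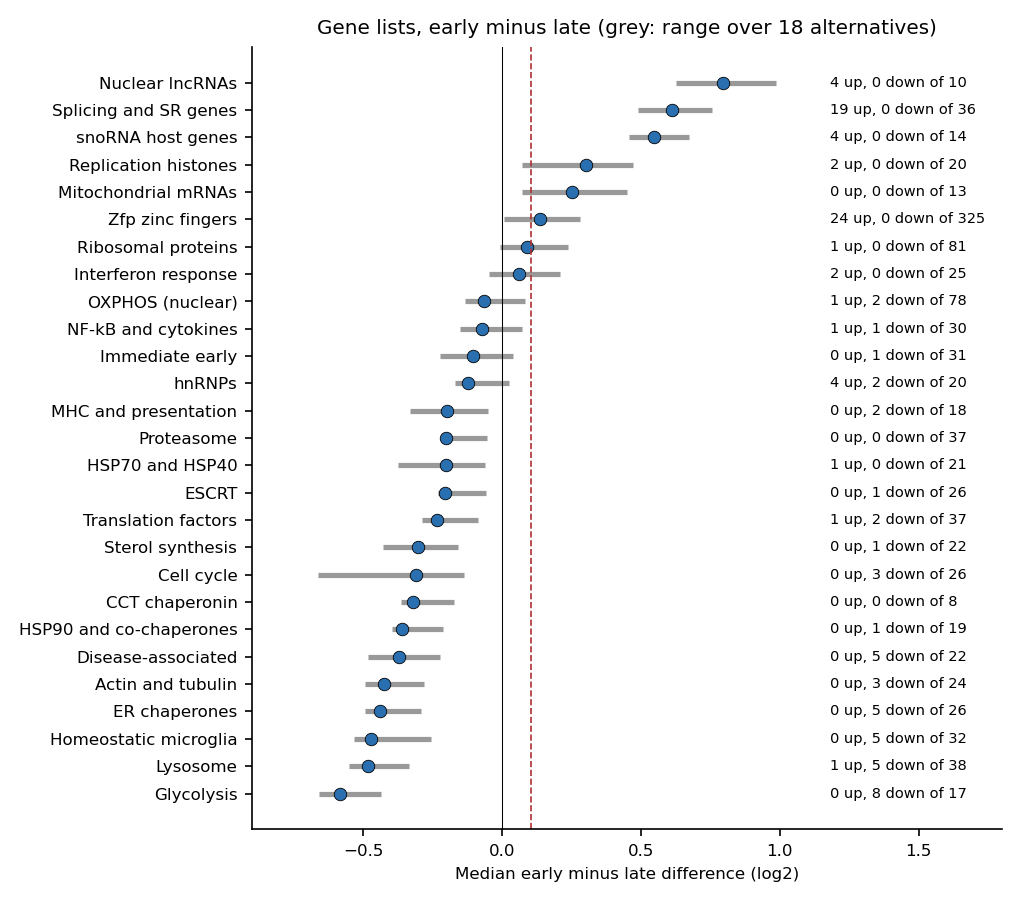
Median log2 difference, early minus late, of 27 gene lists (points, x axis), with grey bars for the range of the median over 18 alternatives and the number of members called higher (up) and lower (down) of those tested at the right. The dashed line is the median of all genes, 0.11, and lists run from glycolysis at -0.58 to nuclear lncRNAs at 0.80. Lists were chosen with earlier results of these data known.

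Without scaling the medians of the lower lists stayed negative, at -0.44 for glycolysis, -0.34 for lysosome, -0.29 for endoplasmic reticulum, -0.28 for cytoskeletal, -0.32 for homeostatic and -0.22 for disease-associated genes, with fewer called lower, namely 1, 1, 2, 1, 1 and 1.

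Several large groups showed few calls. Over all genes tested, 6.4% were called higher and 1.62% lower. Ribosomal proteins had 1 of 81 called, *Rpl5*, which rose by 0.93 ± 0.23 and has snoRNA genes in its introns. Their median was 0.09 and turned to -0.01 without Homo-M-0109 or Homo-M-0190. Nuclear genes of oxidative phosphorylation had 1 of 78 higher (*Cox7b*) and 2 lower (*Atp5a1* and *Atp5g2*), with a median of -0.06 that turned to 0.08 without scaling. The mitochondrial mRNAs had no call among 13 by limma and none with an unadjusted p below 0.05, and 12 of 13 differences were positive (median 0.25). *mt-Atp6* differed by 0.37 (adjusted p = 0.19). The proteasome had no call among 37 by limma, with 14 lower and 1 higher at an unadjusted p below 0.05 (median -0.20).

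Translation factors had 1 of 37 higher, *Eif4a2*, whose introns hold snoRNA genes, and 2 lower, with a median of -0.23. At an unadjusted p below 0.05, 18 of them were lower and 2 higher, against 2425 and 3321 of all 17326 genes. *Eef1a1* differed by -0.50 (adjusted p = 0.0295), below the fold threshold. Cell cycle genes had 3 of 26 lower, *Rrm1*, *Mcm5* and *Mcm6*, which act in DNA replication and fell by 0.77, 0.73 and 0.66. Sterol synthesis had 1 of 22 lower (*Acat2*) and the ESCRT machinery 1 of 26 (*Chmp4b*), with medians of -0.30 and -0.20. At an unadjusted p below 0.05, sterol synthesis had 9 lower and 0 higher, and ESCRT 11 lower and 2 higher. Of the replication histones, *Hist2h4* and *Hist1h2be* rose by 1.44 and 0.99 among 20 tested.

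Inflammatory and stimulus genes showed little shift as lists. Immediate early genes had 1 of 31 called, *Rhob*, which fell by 0.59, with a median of -0.11 that was 0.04 without scaling. NF-kB and cytokine genes had 1 higher, *Nfkbiz* (0.70 ± 0.16), and 1 lower, *Nfkbib* (-0.65 ± 0.15), of 30. Interferon response genes had 2 of 25 higher, *Oas2* (1.796 ± 0.45) and *Mx2* (0.59 ± 0.18), with a median of 0.06 that was -0.05 after quantile normalization. Zinc finger genes named Zfp had 24 of 325 (7.38%) called higher, near the 6.4% of all genes, and none lower. Their median of 0.14 was close to that of all genes. *Zfp457* had the largest difference of those called, at 1.58 ± 0.34.

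Over all genes tested, early and late ranges did not overlap for 5.59%, called or not. The counts below take called genes only, so they are not read as an excess over that share. Among 10321 protein-coding genes that averaged 1 FPKM or more, 165 were called higher and 33 lower without overlap. Lower ones with large differences were *Lmnb1*, lamin B1 (-1.40 ± 0.34), *Crlf2*, the receptor of thymic stromal lymphopoietin (-1.38 ± 0.29), *Qpct*, glutaminyl cyclase (-1.03 ± 0.22), *Itgax*, *Anxa11* (-0.85 ± 0.20), *Bmf* (-0.80 ± 0.17), *Acaa2* (-0.80 ± 0.13), *Atp5g2* (-0.80 ± 0.17) and *Chmp4b* (-0.79 ± 0.25). *Crlf2* was at 3.26, 8.67, 3.69, 2.69 and 7.39 in early libraries and at 8.96 to 14.9 in late ones. The early libraries themselves were split here, with Homo-M-0097 and Het-M-0108 close to the late range. *Acaa2*, which ends a round of mitochondrial fatty acid oxidation, was at 10.6, 11.4, 7.97, 8.02 and 8.25 in early and at 14.5 to 19.5 in late libraries.

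Of the 165 higher ones, the 10 with the largest differences are given. *Pagr1a* had the largest (5.84 ± 0.89, adjusted p = 0.013), at 29.4, 6.43, 12.05, 13.9 and 32.0 in early libraries and at 0.000208 (median) to 3.98 in late ones. It overlaps *Gm42742* and *Pagr1b* on the same strand, and *Gm42742* was at 4.87, 19.9, 20.3, 21.4 and 0.444 in early and at 23.1 to 35.3 in late libraries. The pair of libraries with the highest *Pagr1a* thus had the lowest *Gm42742*, so the split of reads between these genes is uncertain. Male WT libraries, all late, spanned 0.000422 to 17.8 for *Pagr1a*. *Icos*, known as a co-stimulatory receptor of T cells, was at 2.70, 1.89, 1.75, 2.03 and 2.13 in early libraries and at 0.619 to 1.08 in late ones (1.1795 ± 0.23, adjusted p = 0.0151), and a TEC locus overlaps it on the same strand. The T cell markers *Cd3e* and *Cd3g* were at 0 in all 11 libraries.

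The other 8 of these 10 were *Gm17324* (1.79 ± 0.37), *1300017J02Rik* (1.75 ± 0.54), *Dcdc2b* (1.49 ± 0.28), *Inca1* (1.35 ± 0.32), *1700029I15Rik* (1.19 ± 0.28), *Zfp966* (1.15 ± 0.27), *Gm14391* (1.14 ± 0.29) and *Gm9958* (1.11 ± 0.17). *Gm17324*, *Dcdc2b* and *1700029I15Rik* overlap protein-coding genes on the other strand. *Zfp966* and *Gm14391* belong to a cluster of similar zinc finger genes on chromosome 2 and are uncertain for that reason. Over all protein-coding genes, transcript length and GC content hardly separated the direction. The medians of the 4 quartiles of length were 0.02, -0.06, -0.04 and 0.07, and those of GC content 0.03, -0.02, -0.02 and 0.02. Level did more, with medians of 0.23, 0.00, -0.05 and -0.12 from the lowest to the highest quartile of mean FPKM.

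Several loci that share sequence or carry rRNA were lower in early libraries, and all were picked with their values in view, except *Gm15564*, the single lncRNA of the lower group above. *Gm15564* (chromosome 16, 35966752 to 35983230, minus strand) was at 34.9, 55.4, 45.2, 35.4 and 61.8 in early libraries and at 67.4 to 193.2 in late ones, with a median of 102 (-1.27 ± 0.25, adjusted p = 0.0151). *Lars2*, mitochondrial leucyl-tRNA synthetase (chromosome 9), was at 144, 259, 200.6, 141 and 226 in early and at 252 (Het-M-0203) to 678 in late libraries, which overlapped (-1.25 ± 0.25, adjusted p = 0.0151). The 2 genes lie on different chromosomes but share a run of 52 bases. The first 30 bases of that run, from position 179 of the *Gm15564* transcript (GENCODE M21), are printed because reads from it could be assigned to either gene, and the capitals mark bases that are identical in both.
Gm15564: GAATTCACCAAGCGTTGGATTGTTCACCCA
In the *Lars2* transcript, which is 3894 bases long with 2706 coding bases, the run starts at base 3278. What share of either gene's reads comes from this run was not tested. *CT010467.1*, an rRNA gene on chromosome 17, fell by 0.83 ± 0.25 (adjusted p = 0.0416), with early values of 308, 358, 424, 270.5 and 423 and late ones of 378 to 987. *Gm42418*, which overlaps it on the other strand over a run of 1244 shared bases, differed by 0.18 (adjusted p = 0.594). *Mir6236* fell by 1.202 ± 0.31. Male WT libraries spread wider than both groups, from 268 to 2014 for *CT010467.1*.

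*Snord104*, a C/D box snoRNA (chromosome 11, 106500993 to 106501062, plus strand), was chosen after its values were seen. It was listed at 0 in all 5 early libraries and at 4.30, 4.71, 3.61, 2.86, 4.77 and 2.05 in the late libraries, in the order of the lncRNA index above. It was the single gene tested that was at 0 in all early and above 0 in all late libraries. It passed the filter through the late libraries alone and has no spread in the early ones, so its fold and p are not given and its calls support nothing. Its sequence of 70 bases is printed to show which RNA these values belong to, with the C box (TGATGA) and the D box (CTGA) in capitals.
Snord104: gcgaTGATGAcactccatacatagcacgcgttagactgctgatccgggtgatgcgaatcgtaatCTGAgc
Of 99 Snord transcripts in the annotation, 62 (62.6%) hold both motifs within 15 bases of their ends. The 5 male WT libraries were at 1.11 to 4.50, but WT-F-0122, 2 late WT females, Het-F-0205 and Homo-F-0238 were also at 0. Of 93 tested genes with a transcript of 60 to 80 bases, 23 to 32 were above 0 in early and 15 to 27 in late libraries.

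Some markers of other cells were higher in early libraries. Of all genes tested, 6.4% were called higher. The 9 astrocyte markers summed to 92.2, 88.3, 121, 103 and 112 in early libraries and to 70.6 to 94.9 in late ones, and 2 of 9 were called higher with all 9 differences above 0 (median 1.10). *Aldoc* was at 5.62, 1.798, 11.7, 8.75 and 21.2 in early and at 1.26 to 5.43 in late libraries (2.00 ± 0.43, adjusted p = 0.0169), and *Gja1*, connexin 43, at 0.106 to 1.49 in early and 0.0230 to 0.570 in late libraries. The oligodendrocyte markers summed to 65.1 to 162 in early and 64.1 to 86.7 in late libraries, and *Mobp* and *Mbp*, which encode myelin proteins, were called higher among 7 tested. The other markers of this list differed in sign, with 4 of 7 differences below 0, 1 of them with an unadjusted p below 0.05, and the median was -0.13. Het-M-0108 had the highest sum. No neuronal marker of 12 was called by limma, none had an unadjusted p below 0.05, and their sum was 24.4 in Het-M-0108 and 8.23 or less in the other early libraries.

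Some blood cell markers were called higher in early libraries. *S100a8* and *S100a9*, granule proteins of neutrophils, were the 2 called higher of 10 neutrophil markers tested, with 9 differences above 0 and a median of 1.54. Values of *S100a8* were 3.09, 0, 39.6, 80.8 and 29.1 in early and 0 to 4.73 in late libraries. The neutrophil sum of the male WT libraries, 49.7 to 356, overlapped that of the early libraries, 0.225 to 170. It lay above that of the late ones, 0.197 to 14.5. *Ly6g*, *Ctsg* and *Prtn3* were at 0 in all 11. Erythrocyte markers summed to 52.3 to 133 in early and to 0.397 to 128 in late libraries, where Het-M-0210 had the highest sum and the others were at 23.9 or less. *Hba-a2* was the 1 called higher of 5 erythrocyte markers tested, and all 5 differences were above 0. Border macrophage markers summed to 166 to 239 in early and to 126 to 176.996 in late libraries, with Het-M-0203 at 176.996 and the other late libraries at 140.3 or less. *Pf4* was the 1 called higher of 12 (8.33%), near the 6.4% of all genes, and 11 differences were above 0. The male WT sums of border macrophage markers, 160.1 to 213, overlapped both. Of 3 monocyte markers tested, *Ccr2* rose by 0.66, and the median of 0.16 turned to -0.22 after quantile normalization. Of 4 endothelial and mural markers, *Pecam1* fell by 0.61, and 3 differences were below 0 (median -0.59). The lymphocyte and choroid plexus lists had no call by limma, with 1 and 0 genes at an unadjusted p below 0.05. The part of these cells in the RNA class and list differences was not tested.

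**Figure D5:**
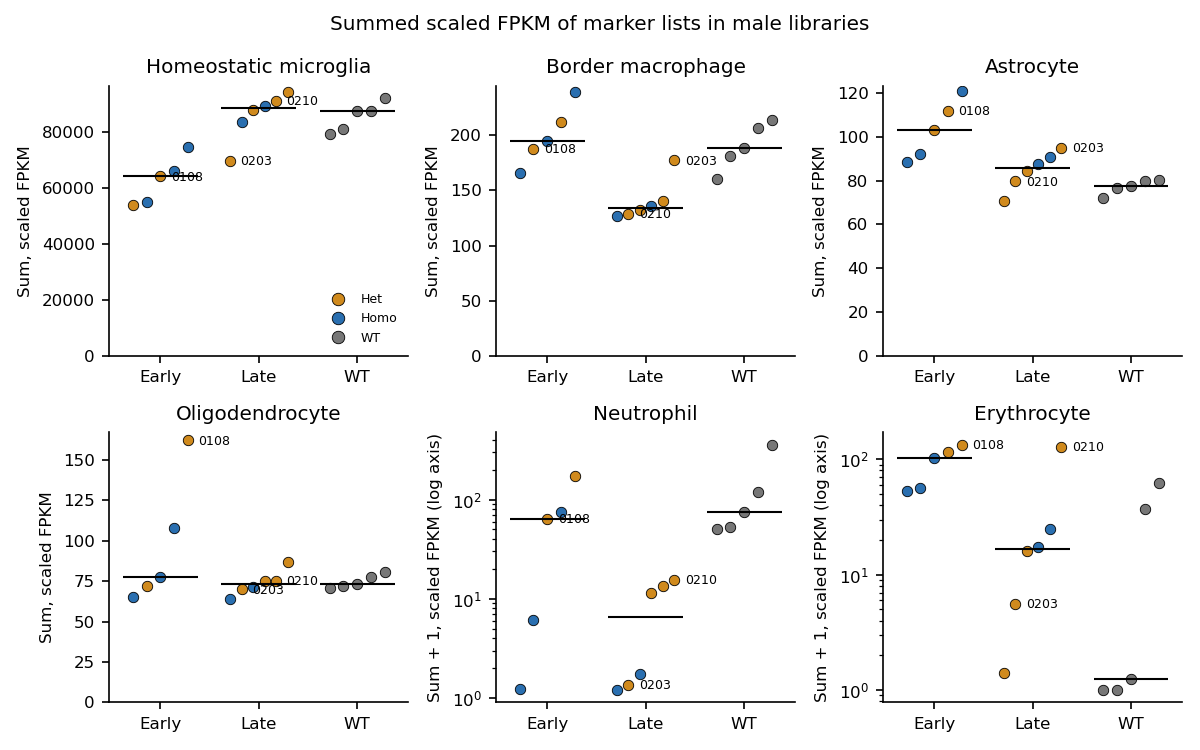
Summed scaled FPKM of 6 marker lists (y axis, log axis after adding 1 for neutrophils and erythrocytes) in early and late Cre-positive and WT male libraries (x axis), coloured by genotype, with a bar at the median. Homeostatic markers are at 54079 to 74747 in early libraries and border macrophage markers at 166 to 239.

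The difference between ranges was not shown to depend on genotype. The interaction of range and genotype called 1 gene of 17326 (0.00577%) by limma, and 394 had an unadjusted p below 0.05. Arms held 2 to 4 libraries. Within Het libraries alone (2 early, 4 late) 21 genes were called, and within Homo libraries alone (3 early, 2 late) limma called 0, with 3050 at an unadjusted p below 0.05. The lncRNA median was 0.65 in Het and 0.53 in Homo libraries, and the protein-coding median was -0.0043 and -0.011.

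The other early library gave a view outside the fit. In WT-F-0122 the lncRNA index was 0.03, against -0.37 to -0.19 in the 3 late WT females, and so below every early male. Late libraries of other groups reached this value too, with male WT libraries up to 0.11 and female Cre-positive ones up to 0.10. The median centred log2 level of the genes called higher was 0.09 in WT-F-0122 and 0.10 in the late WT-M-0202. Of the 1109 genes called higher, WT-F-0122 was above all 3 late WT females for 693 (62.5%), against 4981 (28.7%) of all genes tested. Of the 281 called lower, it was below all 3 for 67.3%, against 25.2% of all. It is 1 library of the other sex and genotype, at a relative depth of 1.34, so these shares have no replicate check.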

How the data were processed

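The study sequenced RNA of sorted microglia, and 11 of the 30 listed libraries entered the comparison. The authors aligned reads to mm10 with OSA4, estimated abundance with RSEM and deposited FPKM for 47643 genes; 6 columns of no listed sample were not used, and read counts were not analysed here. FPKM were divided by the median of ratios over 30 libraries, 0.1 was added, and log2 values of genes averaging 0.1 FPKM or more were fitted with limma 3.58.1 in R 4.3.3 (genotype and range as terms, intensity trend), so folds understate changes of low genes. The methods state 1 nominal read depth for all libraries, and the depth of each beyond the relative values was not analysed here. Annotation was GENCODE M21. Scripts were tested on simulated data.

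Mouse numbers are unique, so none pairs samples. Named genes were taken from these sets: of called genes averaging 1 FPKM or more without overlap, the 10 protein-coding and 5 lncRNA genes with the largest difference in each direction, 2 members with the highest level and up to 4 called members of each list, *Bin1* and *Cx3cr1*, besides those said to be chosen later. Some genes that met the rule are not reported here. Members and lists were chosen with earlier results of these data known. Alternatives were other pseudocounts, filters, scalings, weights, terms and thresholds, and leaving out libraries. Python 3.11.15 with scipy 1.17.1 was used.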

Additional observations from a re-analysis of the deposited data

Results flagged for a closer look

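Within the early and the late libraries, 1 library lay far from the rest of its group for several values by Dixon's test. Chance gives this in about 1 of 20 groups, and 24 of 251 groups tested were flagged, so some flags may be due to chance. Most of these values are those of Het-M-0203 among the late libraries. It was higher than the other late libraries in the border macrophage sum (176.996 against at most 140.3), *Neat1* (30.9), *Ftx* (5.35), *Hist1h2be* (20.7), *Dnajc7* (362), *Mcoln1* (108.99), *Tmsb4x* (8746), *Ogt* (119), *Oas2* (1.54) and *Gja1* (0.570). It was lower in *St13* (25.1), *Calr* (328), *Pdia3* (364), *Cfl1* (214), *Actg1* (272), *Mcm6* (4.38) and *B2m* (1596). In each of these genes Het-M-0203 stood on the side of the early libraries. These values share 1 library and are not independent of each other.

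Het-M-0210 was apart from the other late libraries in the erythrocyte sum (128), *Hba-a2* (44.9) and *Acaa2* (19.5). Het-M-0108 was apart from the other early libraries in the neuron sum (24.4). Homo-M-0190 was apart in *Pagr1a* (3.98), Homo-M-0097 in *Hnrnpa0* (2.57) and Het-M-0199 in *Gm42418* (26.4).

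*Mir466i* was the gene with a call for the interaction of range and genotype (limma adjusted p = 0.0111). Its early minus late difference was 8.61 larger in Homo than in Het libraries on the log2 scale. It was listed at 0 in both early Het libraries and at 0.826 to 3.60 in the 4 late ones. Among Homo libraries it was at 1.06 to 5.16 in the 3 early ones and at 0 in both late ones. The early Het and late Homo libraries thus have no spread. The difference and its p rest on these zeros and on the 0.1 added before the logarithm, so this call supports nothing. With a pseudocount of 1 the interaction called 0 genes by limma.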

How the results depend on the processing

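No paired analysis was possible because each mouse number is unique. Given in order are all genes called, those higher, those lower and lncRNA genes higher in early libraries, which were 1390, 1109, 281 and 301. They were 597, 502, 95 and 110 without the filter on low values, 2264, 1863, 401 and 513 with array weights, 155, 141, 14 and 53 without the intensity trend, 1, 0, 1 and 0 with relative depth as a covariate, and 418, 397, 21 and 163 at a fold above 2. Het libraries alone gave 21, 19, 2 and 0, and Homo libraries alone gave 0 for each. Without a fold threshold 2703 were called and 1099 were lower. No scaling left 58 lower, the fit of all 30 libraries left 148 lower, and quantile normalization left 174 lncRNA genes higher. Chosen after seeing the data, the early libraries Homo-M-0093 and Homo-M-0097 alone gave 22, 13, 9 and 0, and the late libraries without Het-M-0199 and Het-M-0203 gave 2427, 1855, 572 and 492. Leaving out 1 library gave 1 to 2418, 0 to 1860, 1 to 558 and 0 to 490.

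The interaction called 0 genes by limma at a pseudocount of 1 and 0 to 26 without 1 library, with 26 without Het-M-0108. The depth difference ran from -0.44 (without Het-M-0108, exact permutation p = 0.02) to -0.20, and was -0.41 without Het-M-0203 (exact permutation p = 0.01). *Bin1*, not called, turned to -0.20 without the genotype term, to -0.10 without both Het-M-0199 and Het-M-0203, and ran from -0.035 (without Het-M-0199) to 0.24 without 1 library. *Gm42418*, not called, turned to -0.046 in the fit of all 30 libraries and to -0.018 in Het libraries alone. The cause of these shifts was not tested. Every called gene named here lost its call in at least 1 of 30 settings, and without read counts per library no counting limit is given for values near 0.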
